A study of Mus musculus with 16 samples.

Results

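The genes described here are 10 mouse genes of the cytotoxic granule. They are the granzymes Gzma, Gzmb, Gzmm, Gzmc and Gzmk, the pore-forming protein perforin (Prf1), the granule components Srgn and Nkg7, and the serpins Serpinb9 and Serpinb6b. They were taken by symbol from the deposited table of read counts per gene, and all 10 were found among its 49671 genes. Of these, 9 passed the filter on low counts and were tested together with 13940 genes in all, and Gzmk did not pass.

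RNA was measured by Smart-seq2 sequencing in natural killer (NK) cells, sorted as live cells positive for CD45, NKp46 and DX5 and negative for CD3. The labels give 5K to 10K sorted cells per sample. The 16 libraries fall into 4 groups of 4, named here lung DT, lung PBS, LN DT and LN PBS. LN stands for the axillary tumour-draining lymph node, and digestion with Liberase is given for the lungs only. DT mice received 25 ug of diphtheria toxin at T = 0 and T = 7, and PBS mice received PBS at the same times, whose unit the labels do not give. All mice, controls included, were FVB/N of genotype Cdh1F/F;Trp53F/F;Foxp3GFP-DTR with a KEP tumour of 100 mm2 transplanted into the mammary gland. Foxp3GFP-DTR places the toxin receptor in cells that express Foxp3, a design made for removing regulatory T cells with DT. Foxp3 had at most 9 counts in any of these NK cell libraries, which does not measure that removal. The labels name no Cre and no age, and they do not say whether LN and lung libraries of the same number came from the same mouse. The design text gives 4 biological replicates per group, and each library was taken as an independent replicate.

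NK cells store granzymes, which are serine proteases, in acidic granules together with perforin, bound to the proteoglycan serglycin that Srgn encodes. When a granule is released onto a target cell, perforin opens pores in the target membrane and granzymes enter and cleave proteins inside, which can kill the cell. Serpins of the B clade that stay in the cytosol bind and block granzymes that leak from the granules, and so protect the killer cell itself.

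Total counts per library lay between 3929560 and 10744934. The 8 NK cell markers were found in every group, at a summed level of 14008 to 27320 CPM (counts-per-million, on library sizes scaled by TMM) over the 16 libraries. The sum includes Ptprc, which encodes CD45 and is not particular to NK cells, at group means of 3929 to 6126 CPM. Ncr1, which encodes NKp46, had 2451 to 4372 CPM in lung DT and 5164 to 7899 CPM in LN DT, without overlap. Replicate 1 of LN DT and replicate 1 of lung DT differed from the other DT libraries, with the highest Gzma and Nkg7 and the lowest Prf1 of their group. Their TMM factors, 0.879 and 0.84, were also the lowest of the 16 libraries. The share of counts from mitochondrial genes was 3.11% to 4.40% in lung DT, 0.951% to 2.57% in lung PBS, 1.24% to 4.93% in LN DT and 1.05% to 1.68% in LN PBS. In LN DT the library with 1.24% was replicate 4. DT was therefore accompanied by a higher mitochondrial share in all 4 lung libraries and in 3 of 4 LN libraries. A fit that holds this share as a covariate was run as an alternative. As the share largely went with DT, that fit cannot tell the share apart from the treatment. Calls lost or signs turned in it do not show the part of either.

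Set per kilobase of exon, Gzma was the most abundant of the 10 genes in every group. Its mean was 18474 CPM per kb in lung DT, 17690 in lung PBS, 20367 in LN DT and 6229 in LN PBS. Nkg7 came next, at 5728, 8353, 5909 and 5847 CPM per kb in the same order of groups. Gzmb, Serpinb9, Prf1, Srgn and Serpinb6b lay between 159 and 1652 CPM per kb. Gzmm had 10.9 to 49.9, Gzmc 2.36 to 4.96 and Gzmk at most 0.330 CPM per kb. Of the counts of the 5 granzymes, Gzma held 83.9% to 96.0% in every library.

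**Figure D1:**
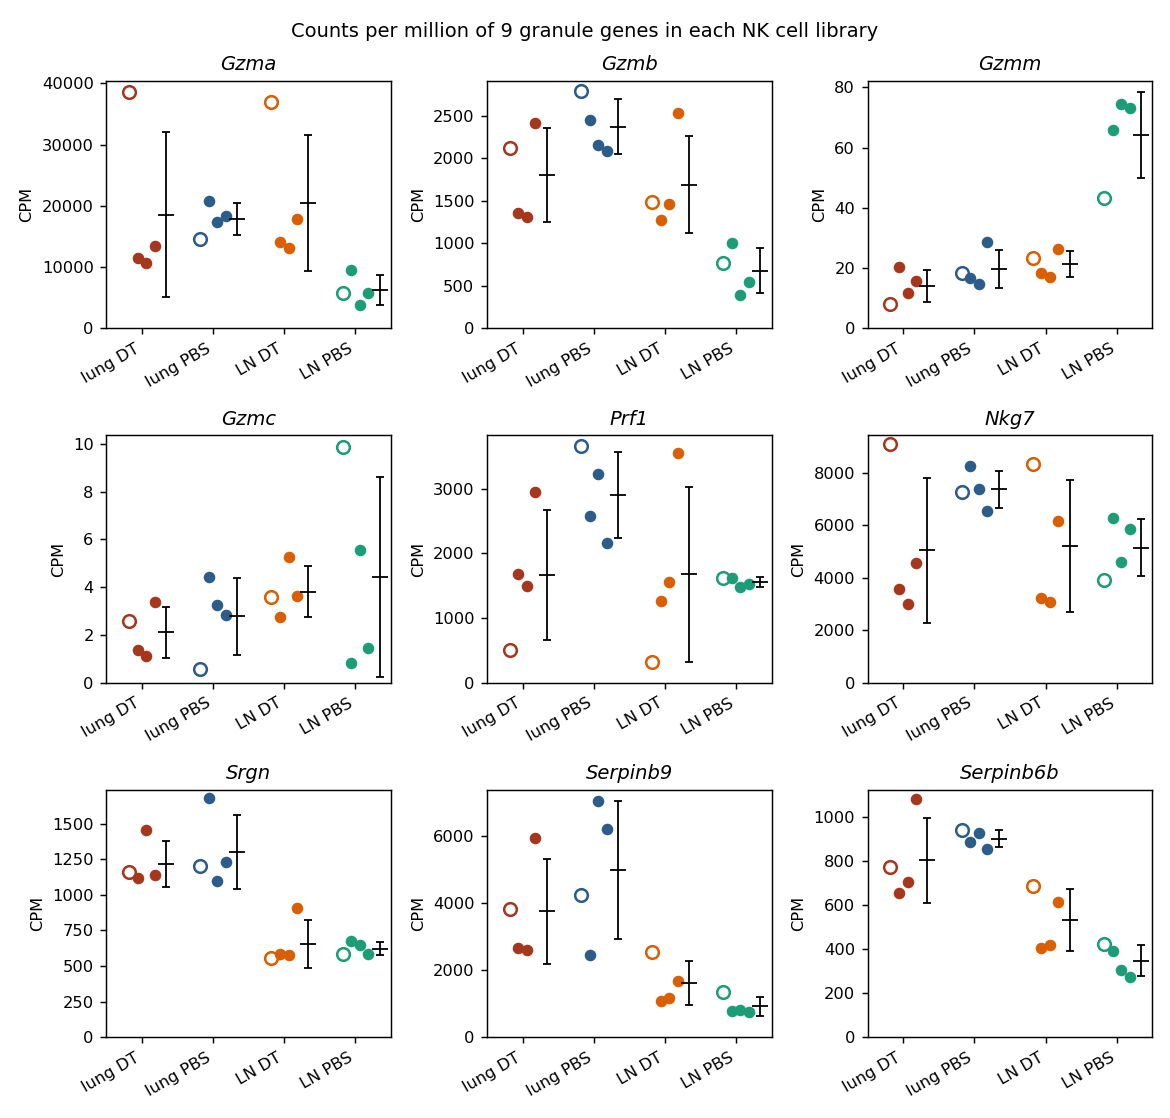
Level in CPM (linear axes from 0) of 9 of the 10 genes in each library, by tissue and treatment, with the mean and SD of 4 libraries beside the points; open circles are replicate 1 of each group. Gzma and Gzmb are lowest in LN PBS and Gzmm is highest there, at 43.4 to 74.4 CPM against at most 28.7 CPM in the other groups, and the open circles of both DT groups are at the bottom for Prf1.

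What DT changed in the LN was asked first. In LN NK cells of mice given DT, Gzma and Gzmb were higher and Gzmm was lower in every DT library than in every PBS library (log2 fold changes of 1.71, 1.32 and -1.59), but none passed the threshold. Of the 9 tested members 0 were called at a Benjamini-Hochberg adjusted p under 0.05 in edgeR's quasi-likelihood test, where 0.0646% of all tested genes were. At an unadjusted p under 0.05, 5 of the 9 members passed, where 11.8% of all genes did, and DESeq2 called 3 of 9, where it called 2.42% of all genes. The groups did not overlap for 3 of the 9 members, against 8.47% of all tested genes (2 higher, against 5.05%, and 1 lower, against 3.42%). The median log2 fold change was 0.10 over the members and 0.08 over all tested genes, and 7 of the 9 lay above 0.

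In lung, the libraries of DT and PBS overlapped for all 9 members, against 7.88% of all genes whose groups did not overlap. None was called (0.108% of all genes), and 0 of 9 had an unadjusted p under 0.05, against 14.7% of all genes. DESeq2 called none of them either, and 3.42% of all genes. The median log2 fold change was -0.40 over the members and 0.09 over all tested genes, and 8 of the 9 lay below 0. The difference between both DT effects, LN minus lung, was called for 0 members (0.00717% of all genes). Its unadjusted p was under 0.05 for 5 of 9 members, against 4.2% of all genes. With the DT effect averaged over both tissues, Gzmm alone was called, as lower, where 3.9% of all genes were called and 1.43% were lower. DESeq2 called 2 members there, Gzmm and Gzma, and 12.1% of all genes. With the mitochondrial share as a covariate, edgeR called 0 of 13940 genes averaged over both tissues (0.0%), and 416 had an unadjusted p under 0.05.

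The tissues were compared next. Without DT, 5 of the 9 members were called between lung and LN, where 3.61% of all genes were. Gzmb, Srgn, Serpinb9 and Serpinb6b were higher in lung PBS, against 2.7% of all genes, and Gzmm was lower, against 0.904%. The groups did not overlap for 8 of 9 members, against 19.2% of all genes. In lung PBS 7 of them were higher, against 9.25% of all genes, and 1 was lower, against 9.91%. Their median log2 fold change was 1.06, against -0.01 over all genes. With DT, Srgn alone was called between the tissues, as higher in lung, where 6.75% of all genes were called and 3.97% were higher. There the groups did not overlap for 2 of 9 members, both higher in lung, against 5.57% of all genes that were higher without overlap, and the median was -0.01 over the members and -0.04 over all genes. In some other fits 2 members, Srgn and Serpinb9, were called there. Of all genes, 12.5% were called in DESeq2, 6.38% with the replicate block over all libraries and 9.67% without both DT libraries numbered 1. Without lung PBS replicate 2 both were called as well, among 872 of 14541 genes. The comparisons share groups of libraries with each other, so their values are given side by side only.

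**Figure D2:**
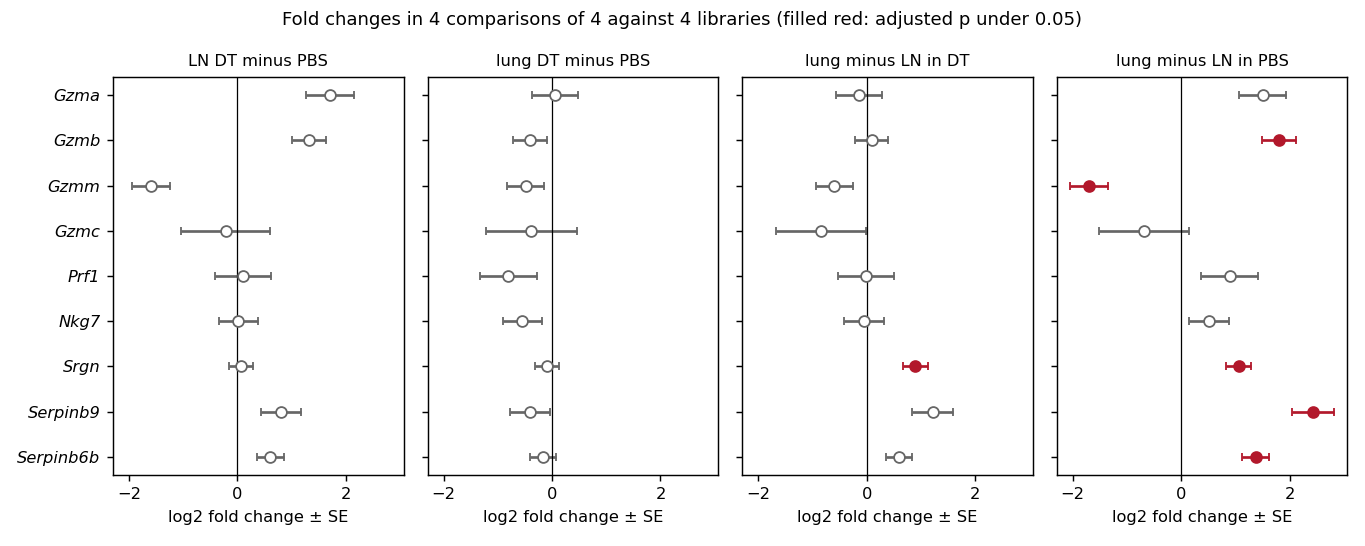
Log2 fold changes with their SE for the 9 tested genes in 4 comparisons of 4 against 4 libraries; filled red points have an adjusted p under 0.05. No point is filled in either DT comparison, Srgn alone is filled for lung minus LN in DT, and Gzmb, Gzmm, Srgn, Serpinb9 and Serpinb6b are filled for lung minus LN in PBS.

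Gzma (ENSMUSG00000023132, GRCm38 chr13:113093825-113100979, minus strand) encodes granzyme A, a tryptase that cleaves after basic residues. It had 36878, 14027, 13125 and 17926 CPM in LN DT, against 5766, 9581, 3898 and 5821 CPM in LN PBS. In lung it had 38631, 11534, 10676 and 13499.6 CPM with DT, against 14608, 20868, 17290.2 and 18418 CPM with PBS. All LN DT libraries thus lay above all LN PBS libraries, while in lung 3 of 4 DT libraries lay below every PBS library and replicate 1 lay above them all. The log2 fold change with DT was 1.71 ± 0.44 in LN (SE; adjusted p = 0.151) and 0.06 ± 0.43 in lung (adjusted p = 0.959). Without both DT libraries numbered 1 these were 1.27 (adjusted p = 0.0646) and -0.64 (adjusted p = 0.157). The sign in lung also turned without lung DT replicate 1 alone (-0.63), in 2 of the other 15 fits without a single library, with the replicate block (-0.15) and with the mitochondrial share in the model (-0.47). Without lung DT replicate 1 alone the LN difference passed (adjusted p = 0.0418), as it did in DESeq2 (adjusted p = 0.00924). The LN effect minus the lung effect was 1.65 ± 0.61 (adjusted p = 1.00).

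In PBS mice Gzma averaged 17796 ± 2598 CPM in lung and 6267 ± 2384 CPM in LN (SD, n = 4 each), with no overlap. The difference of 1.51 ± 0.43 on the log2 scale missed the threshold (adjusted p = 0.0632). It passed in 6 of 23 alternatives, among them the fit without LN DT replicate 1 (adjusted p = 0.0342), without lung DT replicate 1 (adjusted p = 0.011) and without both (adjusted p = 9.18e-04). In DT mice the tissues overlapped and the difference was -0.14 ± 0.43 (adjusted p = 0.901).

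Gzmb (ENSMUSG00000015437, chr14:56258856-56262260, minus strand) encodes granzyme B, which cleaves after aspartate and can activate caspases. It had 1489.9, 1277, 1462 and 2533 CPM in LN DT, against 769.7, 1008, 395 and 543 CPM in LN PBS. In lung it had 2117, 1357, 1308 and 2419 CPM with DT, against 2788, 2451, 2159.6 and 2089 CPM with PBS. The LN groups did not overlap, and in lung 2 of 4 DT libraries lay below all PBS libraries. The log2 fold change with DT was 1.32 ± 0.32 in LN (adjusted p = 0.139), a difference that DESeq2 called (adjusted p = 0.00542). In lung it was -0.40 ± 0.31 (adjusted p = 0.572), and 0.02 with the mitochondrial share in the model. The LN effect minus the lung effect was 1.71 ± 0.44 on the log2 scale, with an unadjusted p of 0.00120 that did not survive adjustment (0.582). Without both DT libraries numbered 1 the LN value was 1.38 (adjusted p = 0.0938).

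Without DT, Gzmb was higher in lung, at 2372 ± 318 CPM against 679 ± 268 CPM in LN (SD, n = 4 each), by 1.80 ± 0.32 on the log2 scale (adjusted p = 0.00350). With DT the tissues overlapped, at 1800.3 ± 554 CPM in lung and 1690.5 ± 569 CPM in LN, and the difference was 0.09 ± 0.31 (adjusted p = 0.915). Since both comparisons were fitted in the same model, their difference is the LN minus lung effect of 1.71 given above, which was not called.

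Gzmm (ENSMUSG00000054206, chr10:79689020-79695261, plus strand) encodes granzyme M, a protease that prefers methionine and leucine and is typical of NK and other innate lymphocytes. Its values in LN lay in the opposite direction to those of Gzma and Gzmb. It had 23.4, 18.4, 16.9 and 26.2 CPM in LN DT, against 43.4, 65.9, 74.4 and 73.1 CPM in LN PBS. In lung it had 8.16, 20.5, 11.7 and 15.8 CPM with DT, against 18.5, 16.9, 14.6 and 28.7 CPM with PBS. LN PBS thus stood above the other 3 groups, with its lowest library at 43.4 CPM and no other library above 28.7 CPM. The counts behind these levels were 57 to 648 per library. The log2 fold change with DT was -1.59 ± 0.35 in LN (adjusted p = 0.0982; DESeq2 8.45e-04) and -0.49 ± 0.34 in lung (adjusted p = 0.521), and LN minus lung was -1.11 ± 0.48 (adjusted p = 1.00). The LN difference passed without LN DT replicate 4 (adjusted p = 0.0478) and without lung DT replicate 1 (adjusted p = 0.033).

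Averaged over both tissues, Gzmm fell with DT by 1.04 on the log2 scale (SE 0.24; adjusted p = 0.0302; 8 libraries against 8). This call was lost in 8 of 23 alternatives. Of single libraries it was lost without LN PBS replicate 2 (adjusted p = 0.0539), 3 (adjusted p = 0.072) or 4 (adjusted p = 0.0743), without LN DT replicate 2 (adjusted p = 0.0708) or 3 (adjusted p = 0.0703), and without lung PBS replicate 1 (adjusted p = 0.0704). With the mitochondrial share in the model the value was -0.84 (adjusted p = 1.00). Between tissues without DT, Gzmm was lower in lung, at 19.7 ± 6.24 CPM against 64.2 ± 14.4 CPM in LN (SD, n = 4 each), with a log2 fold change of -1.70 ± 0.35 (adjusted p = 0.00854). With DT that difference was -0.60 ± 0.34 (adjusted p = 0.349).

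The promoters of Gzma, Gzmb and Gzmm are shown because these 3 granzymes had the largest DT differences of the members in LN and went in opposite directions. Each is the stretch of 250 bases before the RefSeq start, on the strand of the gene, in build GRCm38.p6. They lie at chr13:113100982-113101231 (Gzma, minus strand), chr14:56262335-56262584 (Gzmb, minus strand) and chr10:79688770-79689019 (Gzmm, plus strand). Capitals mark matches to the motifs searched.
Gzma: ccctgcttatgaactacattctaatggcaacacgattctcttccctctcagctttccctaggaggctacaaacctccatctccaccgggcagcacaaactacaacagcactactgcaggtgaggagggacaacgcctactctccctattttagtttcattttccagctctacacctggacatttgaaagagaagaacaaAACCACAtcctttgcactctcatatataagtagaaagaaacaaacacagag
Gzmb: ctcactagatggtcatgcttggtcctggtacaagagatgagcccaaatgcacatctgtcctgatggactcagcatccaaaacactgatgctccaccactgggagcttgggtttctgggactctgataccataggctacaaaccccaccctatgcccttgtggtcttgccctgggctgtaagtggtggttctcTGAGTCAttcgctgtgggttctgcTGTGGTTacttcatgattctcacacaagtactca
Gzmm: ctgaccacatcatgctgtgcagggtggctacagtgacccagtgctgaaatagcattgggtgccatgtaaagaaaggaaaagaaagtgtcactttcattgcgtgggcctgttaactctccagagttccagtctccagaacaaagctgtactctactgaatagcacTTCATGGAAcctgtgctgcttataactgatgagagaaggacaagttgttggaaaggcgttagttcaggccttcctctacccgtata
The motifs searched, on both strands, were RUNX (TGTGGTT), AP-1 (TGAGTCA), CRE (TGACGTC), STAT (TTCNNNGAA), T-box (GGTGTGA) and ETS (GGAAGT). Gzma had a RUNX match, in reverse orientation, 45 to 51 bases before the start. Gzmb had a RUNX match at 28 to 34 and an AP-1 match at 52 to 58 bases before the start. Gzmm had neither, and had a STAT match at 78 to 86 bases before the start. The capitals in each sequence cover these matches. Of 32851 promoter windows of the same length, 4.4% held the RUNX, 4.46% the AP-1, 2.78% the CRE, 7.02% the STAT, 3.33% the T-box and 19.7% the ETS letters. A match is only a description of the letters, and no match says only that they are not in this window. All 10 members had a window, and those of Serpinb9 and Serpinb6b held no match. The RefSeq start used lay 1291 bases from the gene start of the count table for Serpinb9 and 44943 bases for Gzmk. These 2 windows may thus not be the promoters of the counted genes.

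The ratio of Gzmb to Gzmm counts within a library does not depend on the scaling between libraries. It was 66.2 to 259 in lung DT, 72.7 to 150 in lung PBS, 63.6 to 96.5 in LN DT and 5.31 to 17.7 in LN PBS. The LN PBS libraries thus stood apart from the other 12, which already follows from the Gzmb and Gzmm levels given above. The granzymes together took 2.21% ± 0.798 of all counts in LN DT and 0.739% ± 0.271 in LN PBS (SD, n = 4 each), with no overlap. In lung they took 1.90% ± 1.03 with DT and 1.90% ± 0.229 with PBS. These shares follow Gzma, which makes up most of them, and no test was run on them.

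**Figure D3:**
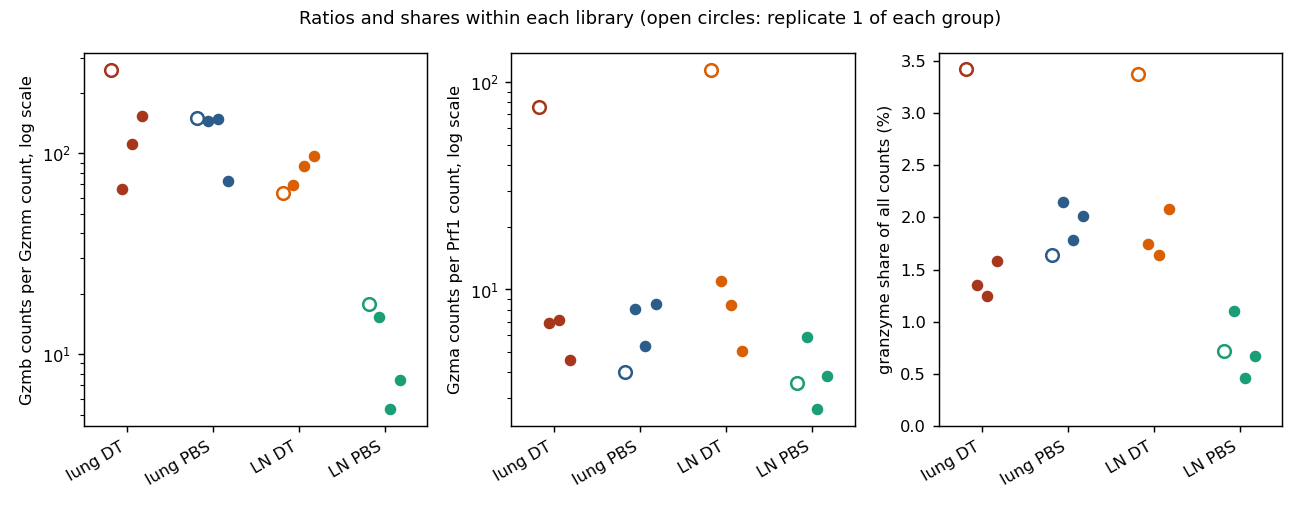
For each library, by tissue and treatment: Gzmb counts per Gzmm count (log axis), Gzma counts per Prf1 count (log axis) and the share of all counts held by the 5 granzymes (percent, linear axis). LN PBS lies below all other groups for the first ratio, at 5.31 to 17.7, and replicate 1 of LN DT and of lung DT (open circles) lies far above the rest for the second, at 114 and 75.7.

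Gzmc and Gzmk were rare. Gzmc (ENSMUSG00000079186, chr14:56231401-56234656, minus strand) encodes a granzyme of the cluster that holds Gzmb, and near copies in that cluster make the assignment of reads among them uncertain. It averaged 2.11 ± 1.07 CPM in lung DT, 2.78 ± 1.61 in lung PBS, 3.82 ± 1.05 in LN DT and 4.43 ± 4.18 in LN PBS (SD, n = 4 each). In LN PBS single libraries ran over the widest range, at 9.86, 0.846, 5.56 and 1.47 CPM. None of its differences passed, with adjusted p from 0.632 to 1.00.

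Gzmk (ENSMUSG00000042385, chr13:113171608-113225908, minus strand) encodes granzyme K, a tryptase like granzyme A that is known from T cells. It had too few counts for a test. The summed counts over 4 libraries were 4 in lung DT, 3 in lung PBS, 15 in LN DT and 0 in LN PBS. In CPM on unscaled totals these are 0.130 (95% Poisson interval 0.0356 to 0.334) in lung DT, 0.0939 (0.0194 to 0.274) in lung PBS, 0.505 (0.283 to 0.833) in LN DT and 0 (up to 0.112) in LN PBS. Of the 15 counts in LN DT, 11 came from replicate 3. Intervals cover counting error only. Of the 5 further granzymes of the mouse cluster (Gzmd, Gzme, Gzmf, Gzmg and Gzmn) none passed the filter, and all 5 were at 0 in LN PBS.

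Prf1 (ENSMUSG00000037202, chr10:61297836-61304263, plus strand) encodes perforin. It had 323, 1271, 1566 and 3548 CPM in LN DT, against 1624, 1618, 1478 and 1523 CPM in LN PBS. In lung it had 510.3, 1679, 1494 and 2956 CPM with DT, against 3655, 2581, 3225 and 2168 CPM with PBS. The DT libraries were spread more widely than the PBS libraries, with an SD of 1355 against 71.8 CPM in LN and 1005 against 662 CPM in lung, and replicate 1 was lowest and replicate 4 highest with DT in both tissues. The log2 fold change with DT was 0.10 ± 0.52 in LN (adjusted p = 0.964) and -0.81 ± 0.52 in lung (adjusted p = 0.488). With the mitochondrial share in the model it was 1.24 in LN (adjusted p = 1.00) and 0.51 in lung (adjusted p = 0.972), so that the direction in lung turned. Without both DT libraries numbered 1 it was 0.45 (adjusted p = 0.634) in LN and -0.58 (adjusted p = 0.308) in lung. Lung PBS lay above LN PBS in all libraries, but the difference of 0.90 ± 0.52 was not called (adjusted p = 0.427), and in DT mice it was -0.01 ± 0.52 (adjusted p = 0.993).

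In both DT libraries numbered 1, Prf1 was low against Gzma and Gzmb. Gzma counts per Prf1 count were 114 in LN DT replicate 1 and 75.7 in lung DT replicate 1. In the other 14 libraries they were 2.64 to 11.04. Prf1 counts per Gzmb count were 0.217 and 0.241 in those 2 libraries and 0.995 to 3.74 in the other 14. Low single DT libraries were not particular to Prf1 or to granule genes. The lowest library of Coro1a had 132 CPM in LN DT (mean 905) and 127 in lung DT (mean 717). That of Il2rb had 148 CPM (mean 1255) and 110 CPM (mean 681). Klrd1 stayed nearer its means, at 1211 CPM (mean 1639) and 1296 CPM (mean 1693). Why the libraries numbered 1 differ was not tested.

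Nkg7 (ENSMUSG00000004612, chr7:43437073-43438249, plus strand) encodes a granule membrane protein that takes part in degranulation. It had 8340.1, 3243, 3076 and 6165 CPM in LN DT, against 3903, 6263, 4589 and 5851 CPM in LN PBS. In lung it had 9074, 3563, 2994 and 4554 CPM with DT, against 7279, 8246, 7371 and 6540.02 CPM with PBS. In lung, 3 of 4 DT libraries thus lay below all PBS libraries and replicate 1 lay above them. The log2 fold change with DT was 0.02 ± 0.36 in LN (adjusted p = 0.994) and -0.54 ± 0.36 in lung (adjusted p = 0.5003). Without both DT libraries numbered 1 the lung value was -1.06 and passed (adjusted p = 0.0495), as did the mean over both tissues, at -0.68 (adjusted p = 0.0398), while the LN value was -0.30 (adjusted p = 0.712). In these fits 3.3% of all genes were called in lung and 9.55% over both tissues. Lung PBS was above LN PBS in all libraries, by 0.51 ± 0.36 (adjusted p = 0.538), and in DT mice the tissues differed by -0.04 ± 0.36 (adjusted p = 0.967).

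Srgn (ENSMUSG00000020077, chr10:62493833-62527451, minus strand) encodes serglycin, the proteoglycan core of the granule. It had 1157, 1119, 1458 and 1138 CPM in lung DT, against 554, 582, 575 and 904 CPM in LN DT. In PBS mice it had 1204, 1676, 1096 and 1228 CPM in lung, against 585, 675, 649.7 and 582 CPM in LN. Every lung library lay above every LN library, with or without DT. Srgn was higher in lung by 0.90 ± 0.23 on the log2 scale in DT mice (adjusted p = 0.0230) and by 1.06 ± 0.23 in PBS mice (adjusted p = 0.0122). It was the only member called between the tissues in both treatments in the fit without a replicate block. The DT effect was 0.07 ± 0.23 in LN (adjusted p = 0.943) and -0.10 ± 0.23 in lung (adjusted p = 0.872), where it was 0.19 with the mitochondrial share in the model.

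Among DT libraries, LN and lung libraries of the same number deviated together from their group means, with r of 0.184 to 0.412. For numbers 2 and 3 a library of another number came nearly as close. A fit with the number as a block was added for lung minus LN in DT mice after the data were seen. In that fit Srgn (0.92, adjusted p = 0.00592), Serpinb9 (1.22, adjusted p = 0.0173) and Serpinb6b (0.61, adjusted p = 0.0333) were called, 3 members with the block against 1 without it, where 12.9% of all genes were called with the block. The Srgn call in DT mice was lost without LN DT replicate 1 (adjusted p = 0.0555), 2 (adjusted p = 0.0808) or 3 (adjusted p = 0.0866) and without lung DT replicate 3 (adjusted p = 0.0667). In PBS mice it was lost without LN PBS replicate 4 (adjusted p = 0.0556) or lung PBS replicate 2 (adjusted p = 0.0526).

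Serpinb9 (ENSMUSG00000045827, chr13:33003250-33017957, plus strand) encodes the mouse inhibitor of granzyme B. Near copies such as Serpinb9b lie beside it, so that reads may be shared among them. It had 4242, 2449, 7034 and 6204 CPM in lung PBS, against 1356, 792, 802 and 747 CPM in LN PBS. In DT mice it had 3821, 2651, 2603 and 5933 CPM in lung, against 2525, 1086, 1162 and 1676 CPM in LN. All lung libraries lay above all LN libraries of the same treatment, in DT mice by a narrow margin. Without DT it was higher in lung by 2.43 ± 0.39 on the log2 scale (adjusted p = 0.00167), the highest value of the 9 tested members, and this was called in 23 of 23 alternatives. With DT the difference was 1.22 ± 0.38 (adjusted p = 0.0623), called in 6 of 24 alternatives, among them without LN DT replicate 1 (adjusted p = 0.032) and without lung PBS replicate 2 (adjusted p = 0.0452).

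With DT, Serpinb9 in LN averaged 1612 ± 662 CPM, against 924 ± 289 CPM with PBS (SD, n = 4 each). The groups overlapped through LN PBS replicate 1, and the log2 fold change was 0.80 ± 0.38 (adjusted p = 0.415). In lung it was -0.41 ± 0.37 (adjusted p = 0.630), and LN minus lung was 1.21 ± 0.53 (adjusted p = 1.00). Set against its target, Serpinb9 had 1.81 to 2.45 counts per Gzmb count in lung DT, 0.999 to 3.26 in lung PBS, 0.662 to 1.69 in LN DT and 0.786 to 2.03 in LN PBS. These ratios of counts are not set per kilobase of exon, and Serpinb9 has the longer exon union (3494 against 1436 bases). Per kb, mean Serpinb9 was below mean Gzmb in every group. In lung it was 1074 against 1254 CPM per kb with DT and 1426 against 1652 with PBS. In LN it was 461 against 1177 with DT and 265 against 473 with PBS.

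Serpinb6b (ENSMUSG00000042842, chr13:32965209-32979067, plus strand) lies in the same cluster of serpin genes and encodes an inhibitor of mouse granzyme A. Its close relative Serpinb6a makes read assignment uncertain. It had 941, 887, 925 and 854 CPM in lung PBS, against 425, 393, 304 and 272 CPM in LN PBS. In DT mice it had 774, 654, 704 and 1081 CPM in lung, against 686, 404, 418 and 615 CPM in LN. The PBS groups were far apart, while the DT groups overlapped, with LN DT replicate 1 above lung DT replicate 2. It was higher in lung by 1.37 ± 0.25 without DT (adjusted p = 0.00394) and by 0.60 ± 0.25 with DT, which did not pass (adjusted p = 0.161). The DT effect was 0.61 ± 0.25 in LN (adjusted p = 0.337) and -0.17 ± 0.24 in lung (adjusted p = 0.783).

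Markers of other cells differed between tissues and treatments, and their part in these results was not tested. The 6 macrophage markers summed to 134 to 3703 CPM in lung DT, 264 to 2629 in lung PBS, 109 to 239 in LN DT and 34.1 to 307 in LN PBS. In lung most of this was Lyz2 (mean of 1768 CPM with DT and 646 with PBS). There C1qa (30.5 and 137 CPM) and Adgre1 (17.5 and 19.7) averaged lower with DT, and Csf1r, Cd68 and Mrc1 averaged higher. The 6 neutrophil markers summed to 8.76 to 287 CPM in lung DT, 15.9 to 97.7 in lung PBS, 0.659 to 4.92 in LN DT and at most 9.02 in LN PBS, and Ly6g, Mmp8 and Retnlg were at 0 in both LN groups. The 8 T cell markers summed to 63.5 to 371 CPM in lung DT, 28.6 to 71.4 in lung PBS, 278 to 461 in LN DT and 325 to 419 in LN PBS, with Cd8b1 at 0 in both lung groups. In LN most of this was Cd3d (mean of 147 CPM with DT and 125 with PBS) and Cd3g (138 and 209). There Cd4 (17.2 and 3.58 CPM), Cd5 (11.6 and 5.33), Cd6 (15.2 and 8.02), Cd8a (4.73 and 0.618) and Cd8b1 (3.96 and 0.644) averaged higher with DT. Cd3e averaged lower (12.8 and 18.8 CPM). Markers of group 1 innate lymphoid cells other than NK cells (8 genes) summed to 49.3 to 90.5 CPM in lung DT, 54.4 to 347 in lung PBS, 601 to 1113 in LN DT and 491 to 824 in LN PBS. In LN this was mostly Il7r (mean of 390 CPM with DT and 402 with PBS) and Cxcr6 (298 and 109). Itga1 (1.87 and 0.532 CPM) and Zfp683 (1.18 and 0.0309 CPM) were near 0 there. The 6 plasma cell markers summed to 212 to 868 CPM in LN DT, against 2.42 to 12.1 CPM in LN PBS, and the 6 B cell markers to 86.0 to 803 CPM in LN DT, against 51.9 to 109 CPM in LN PBS. The plasma cell sum in LN DT was mostly Ighg1 (mean of 301 CPM) and Jchain (200 CPM). Sdc1 averaged 0.448 CPM there, against 0.742 CPM in LN PBS. The 6 plasmacytoid dendritic cell markers summed to 24.8 to 349 CPM in LN DT, against 23.4 to 48.6 CPM in LN PBS. In sorted bulk RNA, fewer cells that express a granule gene and less of its RNA per cell cannot be told apart.

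The genes around the members were described from lists. Of 6 other serpins, Serpinb9b, a relative of Serpinb9, was called between the tissues without DT, where 3.61% of all genes were. It averaged 482 ± 140 CPM in lung PBS and 88.3 ± 17.8 CPM in LN PBS (SD, n = 4 each), higher in lung by 2.45 ± 0.35 (adjusted p = 5.29e-04). In LN it had 196 ± 89.9 CPM with DT against 88.3 ± 17.8 CPM with PBS, without overlap (1.15 ± 0.34, adjusted p = 0.216). Serpina3g and Serpina3f, serpins of the A clade whose products include inhibitors of cathepsins, rose with DT averaged over both tissues, by 2.74 ± 0.63 (adjusted p = 0.0299) and 2.28 ± 0.58 (adjusted p = 0.0412). Both calls were lost with the mitochondrial share in the model, at 3.43 (adjusted p = 0.715) and 3.07 (adjusted p = 0.742), and without a gene filter (adjusted p = 0.0515 and 0.0523). Of 24 alternatives the Serpina3g call was lost in 11 and the Serpina3f call in 13, among them, for both genes, the fits without each single LN PBS library, at adjusted p of 0.0521 to 0.0859. Serpina3g had 55.8 ± 25.8 CPM in LN DT against 16.1 ± 6.01 in LN PBS, and 31.5 ± 21.1 in lung DT against 2.66 ± 3.42 in lung PBS. The other serpins as a list had a median of 1.31 in that comparison, against 0.09 over all genes, with 2 of 6 called, where 3.9% of all genes were.

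Serpina3f had 71.8 ± 31.2 CPM in LN DT against 18.01 ± 14.2 in LN PBS, and 13.02 ± 8.15 in lung DT against 2.38 ± 2.99 in lung PBS. Neither gene was called within a tissue: Serpina3g had 3.68 ± 0.95 in lung (adjusted p = 0.121) and Serpina3f 2.57 ± 0.85 (adjusted p = 0.199). Serpina3f was nearest to a call between the tissues, at -3.04 ± 0.86 in PBS mice (adjusted p = 0.0585) and -2.46 ± 0.80 in DT mice (adjusted p = 0.0746). Serpinb1a, known as an inhibitor of neutrophil proteases, had -2.41 between the tissues in DT mice (adjusted p = 0.118). Serpinb8 was at 0 in LN PBS (LN DT against LN PBS, adjusted p = 0.309).

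Of 13 genes of granule proteases and sorting, 0 were called in any of the 6 comparisons, at the background shares given above. With DT averaged over both tissues, the genes of smallest p were M6pr, the receptor that sorts granule enzymes (-0.67, adjusted p = 0.0590), and the cathepsin gene Ctsh (2.21, adjusted p = 0.0865). In lung PBS against LN PBS they were Ctsc, the protease that activates granzymes (0.99, adjusted p = 0.0645), and Ctsh (3.12, adjusted p = 0.123). With DT in LN they were Ctsh (2.85, adjusted p = 0.303) and Ctsl (2.15, adjusted p = 0.375). With DT in lung they were M6pr (-0.85, adjusted p = 0.191) and Cst7, an inhibitor of granule cathepsins (-0.55, adjusted p = 0.452). In lung DT against LN DT they were Ctsc (0.69, adjusted p = 0.163) and the granule membrane gene Cd63 (1.83, adjusted p = 0.205).

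Of 19 genes of granule transport and exocytosis, Sytl3, a synaptotagmin-like Rab27 effector, was called. It was higher in lung by 1.07 ± 0.21 in PBS mice (adjusted p = 0.00690) and by 0.80 ± 0.21 in DT mice (adjusted p = 0.0296). It was the only gene of the 19 called between the tissues, where 3.61% of all genes were called in PBS mice and 6.75% in DT mice. The call in PBS mice held in 24 of 24 alternatives, and that in DT mice was lost in 8, at adjusted p of 0.0519 to 0.114. The list's medians for lung minus LN were 0.06 in PBS mice and -0.05 in DT mice, against -0.01 and -0.04 over all genes. Next by p between the tissues were Stx11, a syntaxin needed for granule fusion (0.89, adjusted p = 0.122), in PBS mice and Sytl1 (-1.88, adjusted p = 0.178) in DT mice. With DT, the 2 genes of smallest p were Dock8 (0.74, adjusted p = 0.377) and Sytl2 (0.70, adjusted p = 0.406) in LN, and Stx7 (-0.80, adjusted p = 0.283) and Rab27a, which docks granules at the membrane (1.05, adjusted p = 0.408), in lung. Averaged over both tissues they were Dock8 (0.54, adjusted p = 0.158) and Stx7 (-0.52, adjusted p = 0.196).

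Among 11 regulators of NK effector genes, Tcf7 and Zeb2 were called between the tissues in both treatments. Of all tested genes, 3.61% were called between the tissues in PBS mice and 6.75% in DT mice. Tcf7, the transcription factor TCF-1 that marks less mature NK cells, was lower in lung, with log2 fold changes of -2.99 ± 0.41 in PBS mice (adjusted p = 3.65e-04) and -2.23 ± 0.40 in DT mice (adjusted p = 0.00313). Zeb2, a repressor needed for late NK maturation, was higher in lung by 1.35 ± 0.30 in PBS mice (adjusted p = 0.0175) and by 1.17 ± 0.30 in DT mice (adjusted p = 0.0256). Each Zeb2 call was lost in 5 of 24 alternatives, at adjusted p of 0.0513 to 0.0684 in PBS mice and 0.0501 to 0.0785 in DT mice, while both Tcf7 calls were lost in 0. Stat5a, which signals for IL-2 and IL-15, was higher in lung by 1.46 ± 0.25 in DT mice (adjusted p = 0.00243), while in PBS mice it had 0.53 ± 0.25 (adjusted p = 0.287), and the difference between both values was not called (adjusted p = 1.00). No regulator was called for DT, and Tcf7 with DT had -1.33 ± 0.39 in LN (adjusted p = 0.211) and -0.95 ± 0.27 averaged over both tissues (adjusted p = 0.0570). The others of smallest p were Id2 in LN (0.47, adjusted p = 0.511), Stat5a (1.00, adjusted p = 0.110) and Eomes (-0.57, adjusted p = 0.312) in lung, and Stat5a averaged over both tissues (0.53, adjusted p = 0.0865). For LN minus lung of the DT effect, the 2 genes of smallest p in each of these 4 lists are named. They were Serpinb9b (1.65 ± 0.47, adjusted p = 0.785) and, each at an adjusted p of 1.00, Serpinb8, Ctsl (2.32), Cst7 (0.84), Sytl2 (0.69), Vamp7 (0.87), Stat5a (-0.93) and Id2 (0.71).

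The genes most alike to the 3 granzymes over the 16 libraries were found by Pearson's r of log2 CPM, as a description. The libraries share 4 groups, so r is also given after the group means were removed. For Gzma these were Fam221b (0.924, and 0.817 without group means), mt-Tq, a mitochondrial transfer RNA (0.919 and 0.806), and Wtap (0.905 and 0.838). Fam221b and mt-Tq were low, at means of 1.26 and 6.99 CPM, so that their r rests on few counts. Wtap averaged 178 CPM. For Gzmb they were Serpinb9b (0.927 and 0.849), Abcb1a (0.892 and 0.652) and Gpx8 (0.889 and 0.642). For Gzmm they were Tpm1 (0.879 and 0.600), Txndc5 (0.877 and 0.499) and Nudt16l1 (0.872 and 0.626). Of all tested genes, the serpin gene Serpinb9b thus had the pattern most like that of Gzmb.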

How the data were processed

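Per the submitters' processing notes, HISAT2 and HTSeq were used with build GRCm38, in versions not given in the sources used here. Raw counts of 16 libraries were used as the authors deposited them. Counts were filtered with filterByExpr (minimum count 10, minimum total 15), scaled by TMM and fitted with edgeR 4.0.16 (R 4.3.3) in 1 quasi-likelihood model of 4 group means (12 residual degrees of freedom, common biological coefficient of variation 0.621). The 6 contrasts were tested on both sides, with Benjamini-Hochberg adjustment over 13940 genes and a threshold of 0.05; SEs are those implied by the F statistic. The procedure was also run on simulated counts of independent libraries. That run does not check it for libraries that deviate together, as the DT libraries of the same number did. CPM per kb uses the exon union of each gene in a GENCODE annotation of GRCm38, and promoter sequences are from RefSeq. The members, gene lists and tests were chosen with earlier results of these data known. All 10 members are named in every comparison. From each list about granules, serpins and regulators the called genes, or else those of smallest p up to 2, are named, and for 3 granzymes the 3 genes most alike.

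Whether replicate numbers pair libraries was checked by correlating deviations from group means. Between lung DT and LN DT the 4 same-numbered pairs had r of 0.412, 0.194, 0.230 and 0.184. Each lung DT library correlated best with the LN DT library of its own number. Its highest r with another number was -0.156, 0.181, 0.229 and 0.003, so that numbers 2 and 3 were nearly tied. A block is used there as an added alternative. Between the other groups some pairs were under 0.1. The alternatives were median-ratio size factors, total counts, no gene filter, DESeq2 1.42.0, a replicate block, the mitochondrial share as a covariate, leaving out both DT libraries numbered 1, and leaving out each library.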

Additional observations from a re-analysis of the deposited data

Results flagged for a closer look

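Of 40 groups of 4 libraries (10 genes in 4 groups), 5 held a library far from the other 3 by Dixon's test at the 95% level, which chance gives in about 1 of 20 groups. Lung DT replicate 1 had 38631 CPM of Gzma, against 10676 to 13499.6 CPM in the other 3. LN DT replicate 4 had 2533 CPM of Gzmb, against 1277 to 1489.9 CPM in the other 3, and 904 CPM of Srgn, against 554 to 582 CPM. Lung DT replicate 3 had 1458 CPM of Srgn, against 1119 to 1157 CPM in the other 3. LN PBS replicate 1 had 1356 CPM of Serpinb9, against 747 to 802 CPM in the other 3. LN DT replicate 4 was also the DT library with the lowest mitochondrial share, at 1.24%, and what sets these libraries apart was not tested.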

How the results depend on the processing

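Gzmb, Gzmm, Serpinb6b and Serpinb9 were called between lung PBS and LN PBS in 23 of 23 alternatives. The members called there were 5, and 4 to 6 when single libraries were left out. Over all genes, the fits without single libraries called 268 to 992 there, of 14407 to 14586 tested. These fits called 0 to 122 with DT in LN, 89 to 1334 averaged over tissues and 471 to 1554 for lung minus LN in DT. The members called with DT in LN were 0, 3 in DESeq2 (Gzmm, Gzma and Gzmb, with 2.42% of all genes called) and 0 to 2 without single libraries. With DT in lung they were 0, and 1 (Nkg7, with 3.3% of all genes called) without both DT libraries numbered 1. Averaged over tissues they were 1, 0 without a gene filter or with the mitochondrial share, 2 in DESeq2 (Gzmm and Gzma, with 12.1% of all genes called) or without both DT libraries numbered 1 (Gzmm and Nkg7, with 9.55%), and 0 to 1 without single libraries. For lung minus LN in DT they were 1, 0 without a gene filter, 2 in DESeq2 (12.5% of all genes), with the replicate block over all libraries (6.38%) or without both DT libraries numbered 1 (9.67%), 3 with the replicate block among DT libraries (12.9%), and 0 to 2 without single libraries. The replicate block over all libraries also called Gzma between tissues in PBS mice (adjusted p = 0.0308) and changed no further call. Outside the DT groups the libraries share only a number.

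Values that changed sign were never called. They changed with total counts for Nkg7 in LN (-0.0642) and Gzmb between tissues in DT mice (-0.0046). With the replicate block they changed for Prf1 (-0.20) and Nkg7 (-0.11) in LN, Gzma in lung (-0.15) and Prf1 between tissues in DT mice (0.0605, and 0.18 with the block among DT libraries). With the mitochondrial share they changed for Nkg7 in LN (-0.0325), Srgn (0.19), Prf1 (0.51), Gzma (-0.47) and Gzmb (0.0202) in lung, Srgn (0.26) and Prf1 (0.88) averaged over tissues and Prf1 between tissues in DT mice (0.31). Without both DT libraries numbered 1 they changed for Nkg7 in LN (-0.30), Gzma in lung (-0.64), Srgn averaged over tissues (0.0031) and Gzmb between tissues in DT mice (-0.0757). Srgn averaged over tissues was 0.0150 with median-ratio factors, 0.0087 with total counts and 0.0151 in DESeq2, and between tissues in DT mice Prf1 (0.0343) and Nkg7 (0.0131) changed with median-ratio factors and in DESeq2. Leaving out single libraries gave, with DT in LN, -0.56 to 0.54 for Gzmc, -0.34 to 0.20 for Nkg7, -0.13 to 0.13 for Srgn and -0.57 to 0.42 for Prf1. It gave -0.63 to 0.25 for Gzma in lung, and for LN minus lung -0.17 to 0.93 for Gzmc and -0.0232 to 0.27 for Srgn. Averaged over tissues it gave -0.52 to 0.0744 for Gzmc, -0.12 to 0.0117 for Srgn and -0.0171 to 0.31 for Serpinb9. Between tissues it gave -1.02 to 0.0722 for Gzmc in PBS mice, and in DT mice -0.75 to 0.32 for Gzma, -0.46 to 0.28 for Nkg7, -0.0770 to 0.35 for Gzmb and -0.45 to 0.65 for Prf1. The causes were not tested.

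Differences that miss the threshold are not shown to be absent. Counts of Gzmk and Gzmc are too low for firm statements. Scaling by total counts moved the median of all genes by over 0.1 between tissues in PBS mice, to -0.18, against -0.01 with TMM. The replicate block over all libraries moved it to -0.04 with DT in lung, against 0.09 without a block. The block among DT libraries moved it to -0.17 for lung minus LN in DT, against -0.04 without a block.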

Other observations

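Cma1, which encodes the granule protease chymase and is known from mast cells, was looked at after its values were seen, because it held nearly all counts of the mast cell and basophil list. It had 1782, 818, 706 and 1144 CPM in lung DT and 1409, 2218, 1620.1 and 1254 CPM in lung PBS. In LN it had 554, 314, 266 and 399 CPM with DT and 242, 526, 203 and 278 CPM with PBS. All lung libraries lay above all LN libraries of either treatment. Cma1 was higher in lung by 2.38 ± 0.37 on the log2 scale in PBS mice (adjusted p = 0.00117) and by 1.54 ± 0.36 in DT mice (adjusted p = 0.0157). The DT effect was 0.30 ± 0.35 in LN (adjusted p = 0.787) and -0.55 ± 0.35 in lung (adjusted p = 0.486). The other 7 genes of the mast cell and basophil list together had 0.392 to 17.9 CPM in lung DT, 0.482 to 6.09 in lung PBS, 1.54 to 5.53 in LN DT and 1.93 to 3.27 in LN PBS.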
